A study of Caenorhabditis elegans with 2 samples.

Results

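The genes described here are 8 members of the insulin signalling pathway of the nematode Caenorhabditis elegans, daf-2, age-1, daf-18, pdk-1, akt-1, akt-2, sgk-1 and daf-16, and the 14-3-3 genes ftt-2 and par-5. They were examined for binding of the nuclear hormone receptor NHR-25. All 10 were found by symbol among the 19985 protein-coding genes of the ce11 annotation. For each, every peak summit inside the gene or within 5 kb upstream of its outermost 5′ end was taken, a stretch called the window of the gene below. The 10 genes were chosen by symbol, with the signal and position of the thresholded, pooled and replicate peaks of these data already known. Those values are therefore a description and carry no test.

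NHR-25 belongs to the NR5A family of receptors. Chromatin immunoprecipitation and sequencing was run with an anti-GFP antibody on whole L4 hermaphrodites of strain OP33, which has the genotype unc-119(ed3) III; wgIs33 and stably carries an NHR-25 transgene whose C-terminal tag is GFP-FLAG. There is 1 group, with 2 biological replicates and no comparison group. No control data were analysed here. The promoter of the transgene is not given in the sources used here. Whole animals were used, so a peak cannot be placed in a cell type. Replicate 1 had 23929 listed peaks, replicate 2 had 30000 and the pooled list 30000, of which the authors' reproducibility threshold left 1826. These 1826 were the strongest peaks of the pooled list, with signal values of at least 30.3 and a median of 41.2. The signal value is the authors' own, on a scale that is not stated, so it is compared within a list only. Ranks count from 1, the strongest peak. Read depth is unknown.

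Insulin signalling in the worm runs through the receptor DAF-2, the phosphoinositide kinase AGE-1, the phosphatase DAF-18 that opposes it, and the kinases PDK-1, AKT-1, AKT-2 and SGK-1. Phosphorylation by the Akt kinases keeps the forkhead factor DAF-16 out of the nucleus, and 14-3-3 proteins hold it in the cytoplasm. The pathway is known for its control of dauer arrest, stress resistance and lifespan.

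The sequence at the thresholded summits of ftt-2, daf-2, pdk-1 and akt-2 is shown. That of the thresholded daf-16 summits, also described below, is not printed. Each run is the plus strand of ce11, from the RefSeq copy of assembly WBcel235, and reaches 100 bp to either side of the summit. Capitals at ftt-2 mark the longest run of bases shared by its summits, looked for after their values were seen. At daf-2 they mark the repeat GAGAGAG and the nuclear receptor core AGGTCA, at pdk-1 the reverse complement of GAGACGCAG, letters known from EOR-1 binding, and at akt-2 AGGTCA and the reverse complement of GAGAGAG.
ftt-2 stronger summit, chrX:11605801-11606001: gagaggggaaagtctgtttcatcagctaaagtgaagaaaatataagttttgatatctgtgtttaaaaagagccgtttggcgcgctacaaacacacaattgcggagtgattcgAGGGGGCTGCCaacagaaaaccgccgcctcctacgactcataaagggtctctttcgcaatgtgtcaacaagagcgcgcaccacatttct
ftt-2 weaker summit, chrX:11606003-11606203: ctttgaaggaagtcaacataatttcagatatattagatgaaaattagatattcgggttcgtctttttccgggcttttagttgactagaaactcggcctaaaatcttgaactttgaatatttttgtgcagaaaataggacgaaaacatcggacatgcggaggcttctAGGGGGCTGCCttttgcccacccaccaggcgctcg
daf-2, chrIII:3037388-3037588: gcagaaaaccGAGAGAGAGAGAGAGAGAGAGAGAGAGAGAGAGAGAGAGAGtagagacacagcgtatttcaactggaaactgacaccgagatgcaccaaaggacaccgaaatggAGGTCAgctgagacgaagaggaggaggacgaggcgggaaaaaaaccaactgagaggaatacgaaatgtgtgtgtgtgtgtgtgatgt
pdk-1, chrX:1323096-1323296: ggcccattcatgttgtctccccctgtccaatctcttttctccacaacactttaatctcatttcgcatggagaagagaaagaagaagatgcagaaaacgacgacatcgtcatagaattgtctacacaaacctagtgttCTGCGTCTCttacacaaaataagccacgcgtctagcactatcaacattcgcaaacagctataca
akt-2, chrX:14146823-14147023: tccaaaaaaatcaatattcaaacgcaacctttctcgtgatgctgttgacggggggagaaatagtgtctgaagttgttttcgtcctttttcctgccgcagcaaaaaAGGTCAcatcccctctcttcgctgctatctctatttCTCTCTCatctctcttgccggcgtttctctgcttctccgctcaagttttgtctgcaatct

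Thresholded binding lay at 5 of the 10 genes, ftt-2, daf-2, pdk-1, akt-2 and daf-16. Over all protein-coding genes, 13.1% had a thresholded summit in such a window. Nothing about the pathway is read from that difference, because the members were chosen with the peaks in view and their windows are long. The median window was 10.9 kb for the 10 genes and 7.03 kb for all genes. Of genes with windows of 20 kb or more, 26.7% had a thresholded summit, and daf-2 and daf-16 are both in that class. Of genes with windows under 8 kb, where ftt-2 and par-5 lie, 10.9% had one. Of the 4 members on chromosome X, 3 had a thresholded summit, against 16.8% of all genes there. Pooled summits were found at 9 of the 10 genes, with age-1 as the exception, and at 65.0% of all genes.

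**Figure D1:**
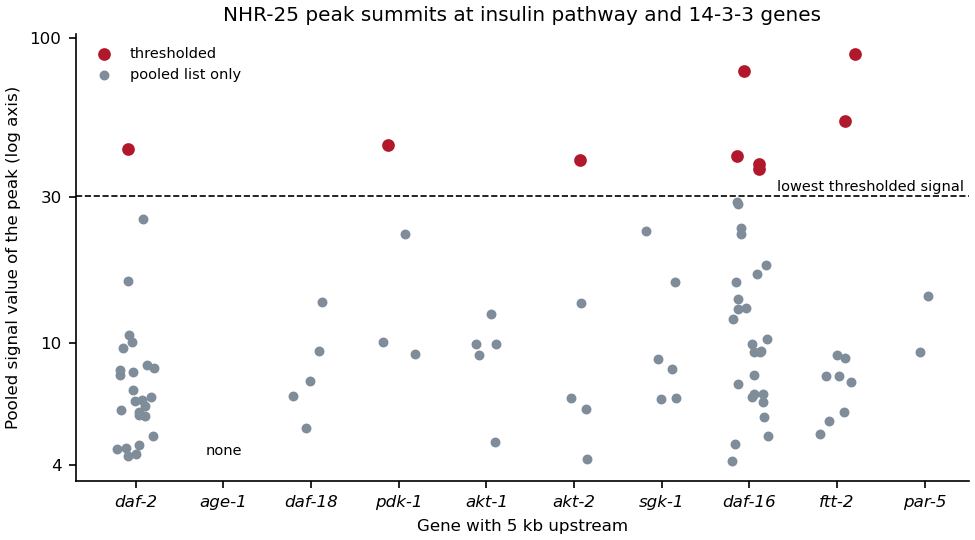
Signal value in the pooled list (log axis) of each peak summit in the gene or within 5 kb upstream, by gene in pathway order, with the 14-3-3 genes last. Red points are the 9 thresholded summits and grey points are in the pooled list only, with the dashed line at the lowest thresholded signal of 30.3. The highest values were at ftt-2 and daf-16, and age-1 had none.

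The 9 thresholded summits at these genes were all outside the exons of their own gene's protein-coding transcripts. Of these, 3 lay upstream of the gene and 6 in introns. Exons of noncoding genes at these places were not examined. Of the 9 summits, 1 was within 500 bp of a 5′ end of its own gene, 3 were within 1 kb and 5 within 2 kb. None lay in the window of another protein-coding gene. Shares over all thresholded summits are not given for these places and distances, so they are not read as particular to these genes. By signal, 5 of the 9 were above the median of the thresholded list. The members' values nearest to the threshold both came from daf-16, at 37.2 inside it (rank 1173 in the pooled list) and 29.0 outside it (rank 1998).

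The receptor gene daf-2 (WBGene00000898, chrIII:2994514-3040846, minus strand) has 6 annotated 5′ ends and 1 thresholded summit. The peak at chrIII:3037293-3037682 had a signal of 13.98 in replicate 1, 34.4 in replicate 2 and 43.1 in the pooled list, where it ranked 834. It ranked 1625 in replicate 1 and 464 in replicate 2, so it was among the strongest 1826 peaks of both. Its summit lay in the first intron of the longest isoform, c, 3358 bp past that 5′ end and 8688 bp before the 5′ end of isoform a. The same place is occupied by linc-143, a long noncoding RNA gene on the same strand, whose own 5′ end is 55 bp from the summit.

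The window of daf-2 is 51.3 kb long and held 26 pooled summits. Next in strength was a summit at 3036210, also in linc-143 and in the same intron, with a pooled signal of 25.5 and rank 2541. The strongest overlapping peaks had 7.53 in replicate 1 and 19.7 in replicate 2, with summits 119 bp apart. Another, at 3029992, lay 1192 bp upstream of the isoform a 5′ end, with a pooled signal of 15.95. The replicate 2 peak there had its summit 8 bp away, with 21.2 and rank 1558. The only overlapping peak of replicate 1, with 4.64 and rank 10497, had its summit 357 bp away, and no replicate 1 summit was nearer. The remaining pooled summits of daf-2 had signals of at most 10.7. The thresholded summit was nearest to the outermost of the 6 5′ ends.

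At age-1, which encodes the catalytic subunit of the phosphoinositide kinase (WBGene00000090, chrII:11519328-11527054, minus strand), no pooled and no replicate 2 summit was found. Replicate 1 had a single summit there, with a signal of 2.72 and rank 18742, 4837 bp upstream. Of the 1615 genes with a window as long as the 12.7 kb of age-1 or longer, 194 including age-1 had no pooled summit. The nearest thresholded summit, at 11534811 with a signal of 38.1, lay 7757 bp upstream, beyond the window.

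At daf-18 (WBGene00000913, chrIV:420011-425177, minus strand), 5 pooled summits were all below the threshold. The strongest lay 611 bp upstream of the only annotated 5′ end, with a pooled signal of 13.7 and rank 7134. Both replicates had a peak there, with 6.06 in replicate 1 and 7.49 in replicate 2, and their summits were 27 bp apart. That position is also in the window of garr-1, on the other strand. The nearest thresholded summit to daf-18 was 18664 bp upstream.

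The kinase gene pdk-1 (WBGene00003965, chrX:1321344-1327986, plus strand) had 1 thresholded summit, in its second intron and 1843 bp past the nearer of its 5′ ends. The peak at chrX:1323001-1323390 had a pooled signal of 44.6 and ranked 768. Its strength rested on replicate 2, where it had a signal of 37.1 and rank 372, while replicate 1 had 4.96 and rank 9572. Of the 1826 thresholded peaks, 75 (4.11%) ranked lower than this in replicate 1 or had no overlapping peak there. Taking as many of the strongest peaks of each replicate as there are thresholded peaks, pdk-1 had none from replicate 1 and 2 summits from replicate 2. The second of these corresponds to a pooled summit 1486 bp upstream, with a signal of 22.7 and rank 3125.

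**Figure D2:**
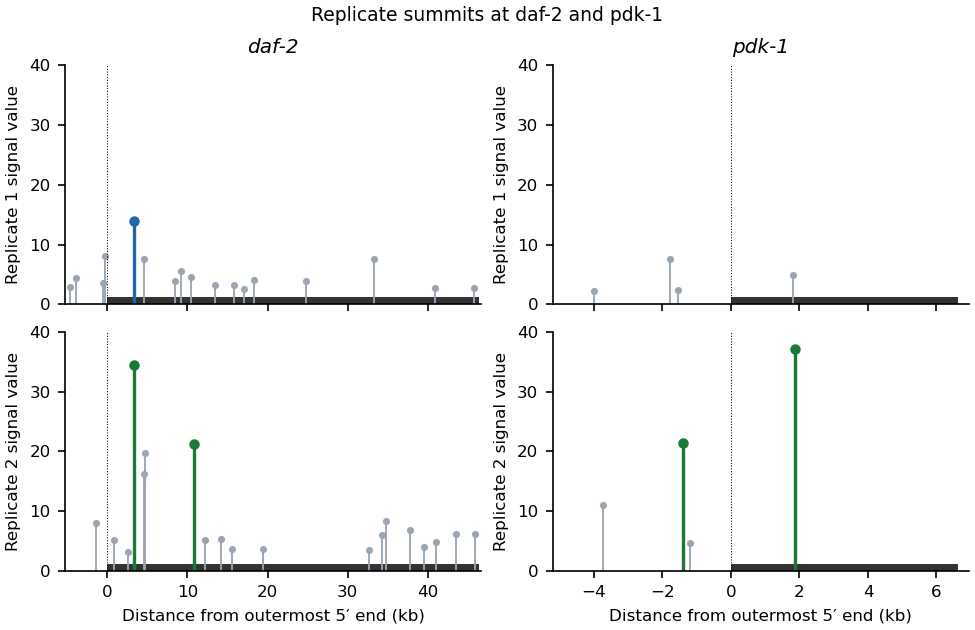
Signal values of all peak summits of replicate 1 (top) and replicate 2 (bottom) at daf-2 (left) and pdk-1 (right), by distance in kb from the outermost 5′ end, with the gene as a black bar. Coloured stems are among the strongest 1826 peaks of that replicate. The intronic pdk-1 summit stood at 4.96 in replicate 1 and 37.1 in replicate 2.

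The Akt kinase genes differed in these lists. At akt-2 (WBGene00000103, chrX:14147700-14152070, plus strand) the peak at chrX:14146728-14147117 had its summit 777 bp upstream of the single annotated 5′ end. The signal reached 16.3 in replicate 1, 25.2 in replicate 2 and 39.9 in the pooled list, with ranks of 1160, 1079 and 1008. No other protein-coding gene has this summit in its window. The other 4 pooled summits of akt-2 had signals of at most 13.5.

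At akt-1 (WBGene00000102, chrV:10248905-10252845, plus strand) all 5 pooled summits were below the threshold, and the highest had a signal of 12.5 and rank 8174. That summit lay 4239 bp upstream and also in the windows of C12D8.21, C12D8.9 and fipr-8. Nearer to the gene, 655 bp upstream, the pooled signal was 9.93. Replicate 1 had 1 summit in the akt-1 window, with a signal of 3.70, and replicate 2 had 8, of at most 12.5. The nearest thresholded summit was 44935 bp away. The difference between akt-2 and akt-1 is one of position on the list and was not tested.

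For sgk-1, which encodes a kinase related to Akt (WBGene00004789, chrX:16254842-16262122, minus strand), the strongest of 6 pooled summits had a signal of 23.4 and rank 2966. It lay 1301 bp upstream and inside the neighbouring gene mua-6, so its position does not separate the pair. The overlapping replicate peaks had 5.79 in replicate 1 and 16.9 in replicate 2, ranked 7675 and 2462, with summits 163 bp apart. This summit was below the threshold although its deposited −log10 q-value was 3.796, the highest in the pooled list and one shared by 3126 peaks. Of the pooled summits of the 10 genes, 7 had that highest value and were not in the thresholded list, with 4 of them at daf-16 and 1 each at daf-2, pdk-1 and sgk-1.

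Of the 10 genes, daf-16, the FoxO gene (WBGene00000912, chromosome I, 10750498 to 10776703, plus strand), had the most thresholded summits. It had 4, a number reached or passed by 40 of 19985 protein-coding genes (0.2%). Its window is 31.2 kb long, and of the 93 genes with windows at least that long, 3 including daf-16 had 4 or more. It also held 30 pooled summits, 9.61 per 10 kb, against 2.99 per 10 kb over the genome. The shorter window of ftt-2 was denser in the pooled list, with 14.9 pooled summits per 10 kb. Replicate 1 had the same order, 14.9 at ftt-2 and 8.01 at daf-16. In replicate 2 the order was reversed, with 7.45 at ftt-2 and 8.65 at daf-16. Of those 93 genes, 7 including daf-16 had as many pooled summits.

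The strongest daf-16 peak, at 10769713 to 10770102, had a signal of 27.2 in replicate 1, 52.7 in replicate 2 and 77.8 in the pooled list. It ranked 318, 142 and 159. The summits of the replicates were 6 bp apart, and both lay within 3 bp of the pooled summit. This summit is in an intron of the longer isoforms, 1600 bp upstream of the 5′ end of isoform a and 3091 bp upstream of that of isoform e. It is 6254 bp or more past the 5′ ends of all other isoforms.

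The other 3 daf-16 summits lay together, with 2242 bp between the first and the last, in an intron of isoforms d, f, h, i and k. In isoform d this intron is 12401 bp long. Their pooled signals were 41.0 at 10755959, 37.2 at 10757142 and 38.6 at 10758201, with ranks 932, 1173 and 1080. In replicate 1 they had 10.4, 15.5 and 11.4, in the same order. In replicate 2 they had 25.6, 26.3 and 25.7, so the 3 differed little from each other in that replicate. Only the middle one was among the strongest 1826 of replicate 1, at rank 1290, while all 3 were among those of replicate 2. They were between 4902 and 7144 bp upstream of the 5′ end that isoforms b and c share, and at least 4999 bp past the outer 5′ ends. The middle summit was 3 bp from R13H8.4, a noncoding RNA gene on the other strand.

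Below the threshold, daf-16 also had the strongest pooled summits of the 10 genes. One at 10761895 had a signal of 29.0, 1208 bp upstream of the 5′ end of isoforms b and c, and one at 10753964 had 28.5. At the outermost 5′ end itself, a summit 449 bp upstream had 22.8 and rank 3102. Of the 13 pooled summits in the 12401 bp intron, 10 were below the threshold.

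**Figure D3:**
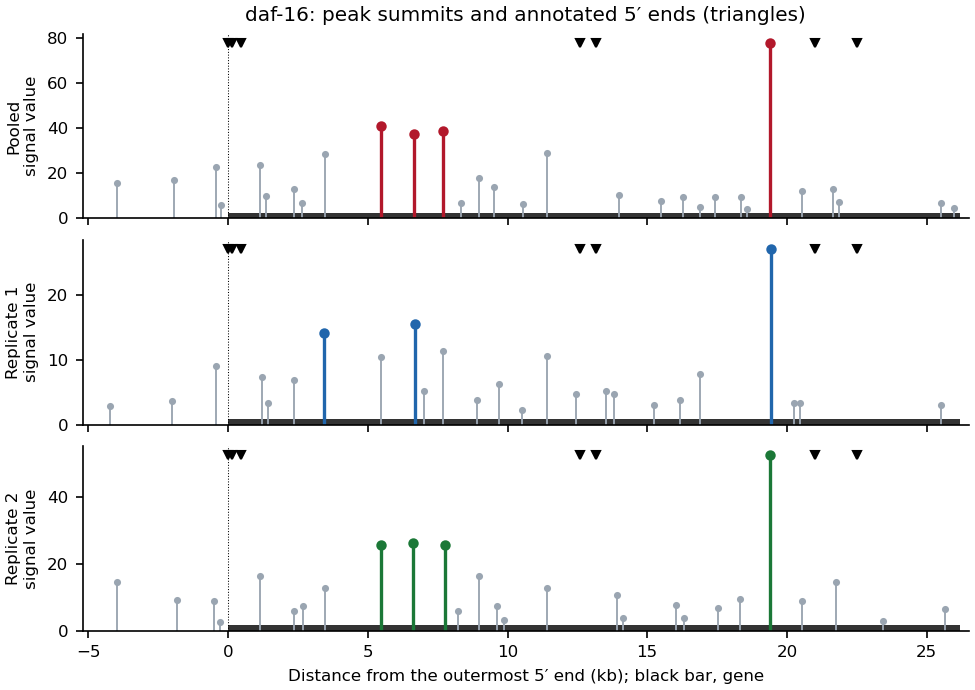
Signal values of all peak summits at daf-16 in the pooled list, replicate 1 and replicate 2, by distance in kb from the outermost 5′ end. Triangles are annotated 5′ ends, the black bar is the gene, and coloured stems are among the strongest 1826 peaks of that list. The strongest summit in each panel lay 1600 bp or close to it before the 5′ end of isoform a.

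The 14-3-3 genes also differed in these lists. The product of ftt-2 (WBGene00001502, chrX:11603708-11605419, minus strand) is a 14-3-3 protein that binds DAF-16. Its peak at chrX:11605805-11606000 had the highest signal of any at the 10 genes, with 39.5 in replicate 1, 53.9 in replicate 2 and 88.3 in the pooled list. The ranks were 103, 135 and 114. Ordered by their best thresholded signal, ftt-2 was gene 197 and daf-16 gene 274 of the 2621 with any, while pdk-1, daf-2 and akt-2 were genes 1244, 1347 and 1598. The summit lay 482 bp upstream of the outer of its 5′ ends and inside F52D10.7, a noncoding RNA gene on the same strand, 88 bp from that gene's own 5′ end.

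A second ftt-2 peak, at chrX:11605908-11606297, overlaps the first and had its summit 684 bp upstream. Its pooled signal was 53.4, with rank 481. The replicate peak with the nearest summit had 9.90 and rank 3174 in replicate 1, and 32.9 and rank 520 in replicate 2. The second peak was thus among the strongest 1826 in replicate 2 and not in replicate 1, and the first in both. This summit was 26 bp from F52D10.9, another noncoding RNA gene. The other 8 pooled summits of ftt-2 had signals of at most 9.16. In replicate 2, a summit 1457 bp upstream had 19.3 and rank 1922.

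The par-5 gene (WBGene00003920, chrIV:11820506-11821924, minus strand) encodes the other 14-3-3 protein of the worm, known for its part in embryonic polarity. It had 2 pooled summits and none above the threshold. The stronger had a signal of 8.59 in replicate 1, 9.73 in replicate 2 and 14.3 in the pooled list, with rank 6647. It lay 733 bp upstream and inside the neighbouring gene M117.3. The windows of the pair are close in length, 6.71 kb for ftt-2 and 6.42 kb for par-5. Within the pooled list the best signal was 88.3 at ftt-2 and 14.3 at par-5, a difference that was not tested.

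**Figure D4:**
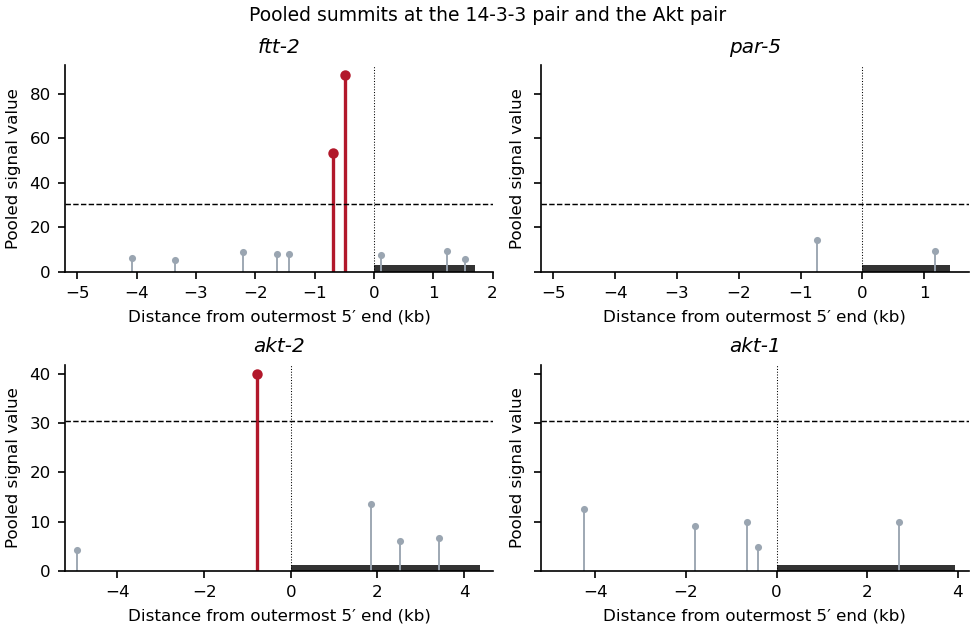
Pooled signal values of peak summits at ftt-2 and par-5 (top) and at akt-2 and akt-1 (bottom), by distance in kb from the outermost 5′ end, with the gene as a black bar and the lowest thresholded signal of 30.3 dashed. Thresholded summits are red. The summits at ftt-2 stood at 88.3 and 53.4 and the one at akt-2 at 39.9, while par-5 and akt-1 had at most 14.3 and 12.5.

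The replicates ranked these summits unequally. All 9 overlapped one of the strongest 1826 peaks of replicate 2, and 6 overlapped one of replicate 1. The exceptions were pdk-1 and 2 of the intronic daf-16 summits. Over all 1826 thresholded peaks, 79.1% overlapped the strongest of replicate 2, 67.3% those of replicate 1 and 52.4% those of both. The second ftt-2 summit counts among the 6 through the peak of its stronger neighbour, and with the replicate peak of nearest summit the number was 5. When genes were counted from each replicate alone, 4 of the 10 had a summit among the strongest peaks of replicate 1, against 12.4% of all genes. From replicate 2, 5 of the 10 had one, against 12.8% of all genes. The thresholded list came from these same replicates, and the genes were chosen with the peaks known. These counts are therefore a description and no separate support.

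**Figure D5:**
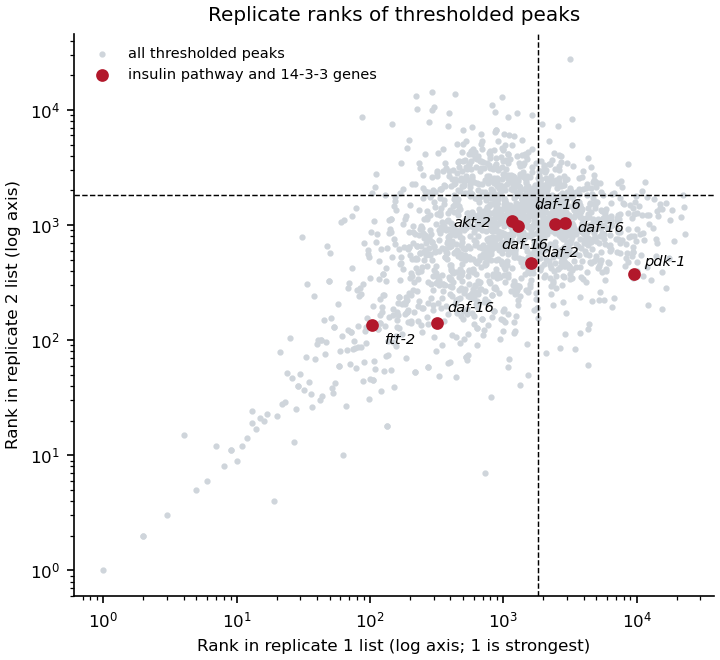
Rank of the strongest overlapping peak in replicate 1 (horizontal, log axis) and replicate 2 (vertical, log axis) for the thresholded peaks with a peak in both replicates, with those at the 10 genes in red and rank 1826 dashed. The weaker ftt-2 summit is left out because it overlaps the same replicate peaks as the stronger one. Of the red points pdk-1 lies farthest right, at rank 9572 in replicate 1 and 372 in replicate 2.

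Sequence was not used to choose the genes. None of the 9 summits had the NR5A letters TCAAGGTCA, CAAGGTC or CAAGGNC within 100 bp on either strand. The loosest of these, CAAGGNC, was at 10.8% of all thresholded summits and 3.40% of windows of the same width around protein-coding 5′ ends. The 9 summits are therefore too few to show a lack of it. The nuclear receptor core AGGTCA was at 2 of the 9, against 12.4% of thresholded summits and 5.35% of 5′ ends. These were the daf-2 summit, where it began 14 bp away, and the akt-2 summit, where it began 5 bp away, both printed in capitals above.

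The repeat GAGAGAG was at 5 of the 9 summits, against 20.6% of all thresholded summits and 3.74% of 5′ ends. They were those of daf-2 and akt-2 and 3 of daf-16. With 3 of the 5 from a single gene, the 9 summits are too few to show an excess. At daf-2 the overlapping copies formed an unbroken run of 41 bases, the long capital stretch above, and a run that long was at 13 of 1826 thresholded summits (0.712%), daf-2 included. At the strongest daf-16 summit the longest run was 27 bases. GAGACGCAG was found at pdk-1, 37 bp from the summit, and at 12.2% of all thresholded summits. The forkhead letters GTAAACA, of the type bound by DAF-16, were at none of the 9 and at 3.34% of thresholded summits. The E-box CACGTG was also at none, against 8.38% of thresholded summits and 4.39% of 5′ ends. The GATA-like CTTATCA was at 1, a daf-16 summit, against 3.94% of thresholded summits and 5.95% of 5′ ends. Several of these counts depend on the width: within 200 bp, the NR5A letters CAAGGTC and the looser form CAAGGNC were at 1 of the 9, as were the forkhead letters and the E-box, and within 50 bp GAGAGAG was at 3 and CTTATCA at 0. At 50 and 200 bp the shares over all thresholded summits and 5′ ends are not given, so those counts have no background beside them. Within 100 bp, neither ftt-2 summit held any of the 9 motifs searched. The share of G and C within 100 bp ran from 38.3% to 56.2% over the 9 summits, at the third and the second of the daf-16 cluster, against a median of 43.8% over all thresholded summits. Some of these letters overlap, since TCAAGGTCA holds CAAGGTC and AGGTCA, and CAAGGNC holds CAAGGTC as one case.

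Noncoding RNA genes lay in or within 100 bp of 4 of the 9 summits, both at ftt-2, the one at daf-2 and the middle one of daf-16. Of all thresholded summits 21.4% lay so, and of all pooled summits 9.26%. Whether the binding belongs to these genes or to the protein-coding ones was not tested.

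Other genes of the pathway were counted in 5 lists that hold 82 matched genes. Of these, 10 (12.2%) had a thresholded summit in their window, close to the 13.1% of all genes. Of 39 insulin-like peptide genes, the ligands of DAF-2, only ins-39 had one, with a signal of 61.7 and 631 bp upstream. Their windows are short, with a median of 5.66 kb, and of all genes with windows under 8 kb 10.9% had a thresholded summit. Of 9 adaptors and modulators of the kinase cascade, 1 (11.1%) had one, near the share of all genes. It was pptr-1, a regulatory subunit of a phosphatase that acts on AKT-1, with 41.1.

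In the arm of the TOR kinase the median window was 13.0 kb. Over all genes 13.1% had a thresholded summit, and 19.3% of those with windows of 12 to 20 kb. Of the 8 TOR arm genes 4 had one, a difference that was not tested. They were rheb-1, a small GTPase gene, with 48.8, rsks-1, an S6 kinase gene, with 39.03, let-363, the TOR kinase gene, with 30.7, and aak-2, an AMP-activated kinase gene, with 30.5. The last pair are close to the lowest thresholded signal. The rheb-1 summit is also in the windows of spk-1 and F54C8.7, the let-363 summit in those of vep-1 and B0261.6 and the aak-2 summit in that of got-1.2.

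Among 12 partners and regulators of DAF-16, 3 had thresholded summits, against 13.1% of all genes. Their median window was 10.3 kb, and 16.5% of all genes with windows of 8 to 12 kb had one. The difference was not tested. The cofactor gene smk-1 had 3 summits, with signals of 87.0, 70.1 and 49.7, all shared with the window of vps-60. Those of 87.0 and 70.1 are also in the window of F41E6.15, and that of 87.0 in the window of F41E6.8. The stress response factor gene skn-1 had an intronic summit of 53.0, and the deubiquitylase gene math-33 had summits of 32.6 and 30.6, the weaker also in the windows of Y42A5A.5 and erfa-3. Of 14 genes known as DAF-16 targets, 1 (7.14%) had a thresholded summit, against 10.9% of all genes with windows under 8 kb. The median window of this list was 6.14 kb, and it is too short to show a lack. The gene was icl-1, a glyoxylate cycle gene, with 30.7, also in the windows of fbxb-72 and srh-2.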

How the data were processed

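Per the labels, chromatin immunoprecipitation of NHR-25 with GFP was sequenced from 2 biological replicates. The deposited ce11 peak lists of each replicate, of the pooled data and after thresholding by the irreproducible discovery rate were used. The text records deposited beside them name those 3 lists as the source of the thresholded one. For the peak caller, aligner and threshold, the sources used here give no name or value. Peaks were ranked inside each list by the deposited signal value, and the deposited −log10 q-value is given where named. The ce10 lists were not used here.

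Genes were those of Ensembl release 115 and sequence that of RefSeq WBcel235, both ce11, read with Python 3.11.15 and pandas 2.3.3. A summit is the peak start plus the deposited offset, printed counting from 1. Replicate peaks were matched by an overlap of at least 1 bp, taking the strongest. Motifs were searched on both strands within 100 bp of a summit. Assignment and motif search were tested on simulated data.

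The members and lists were chosen with earlier results of these data known. All members are named, and of each list up to 6 genes with a thresholded summit. Of 40 insulin-like peptide symbols, 39 matched. Alternatives covered the upstream reach, overlap, nearest 5′ end, promoter side, a stricter threshold, merging, motif width and each replicate alone.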

Additional observations from a re-analysis of the deposited data

How the results depend on the processing

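The count of genes with a thresholded summit, 5 of 10, stayed between 4 and 6 under 9 of 10 alternatives. It was 5 with a reach of 1 kb, against 7.12% of all genes, and 5 with 2 kb, against 8.97%. By nearest 5′ end within 2 kb it was 4, without daf-2, against 6.05%. With peaks above the median signal it was 4, without akt-2, against 7.37%. It was 2, ftt-2 and akt-2, with the promoter side only, the upstream 5 kb and 500 bp past the outermost 5′ end, against 11.7% of all genes. With a reach of 10 kb it was 6, with age-1 added, against 19.1% of all genes. With 1 replicate left out no thresholded list exists, so the strongest 1826 peaks of the other replicate stood in for it. For the pooled list its whole list did. The leave-one-out values were 4 to 5 for the gene count and 9 to 10 for genes with a pooled summit. They were 8 to 10 for list genes, 103 to 135 for the rank of the strongest ftt-2 peak and 6 to 9 for summits among the strongest of the replicates. The list count of 10 was 6 with the promoter side only, and 4 with peaks above the median signal, against 7.37% of all genes there. The 3 thresholded summits within 1 kb of an own 5′ end were 1 within 500 bp and 5 within 2 kb, widths added after seeing the data, as was the choice of replicate peak by nearest summit. The number of summits with any of the motifs, 7 within 100 bp, was 5 within 50 bp and 7 within 200 bp. Single motifs moved more: within 50 bp GAGAGAG was at 3 summits in place of 5 and CTTATCA at 0 in place of 1, and within 200 bp the NR5A letters CAAGGTC and the looser form CAAGGNC, the forkhead letters and the E-box were each at 1 in place of 0. Shares over all thresholded summits are not given at 50 and 200 bp. Among the strongest 1826 peaks of replicate 1 alone, pdk-1 had no summit. No paired analysis was possible because the study has 1 group. Depth is unknown, so no counting error can be given for any peak.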

Other observations

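Past the 3′ end of ftt-2 and outside the window used here, a thresholded summit with a pooled signal of 41.2 lay at 292 bp and one with 32.0 at 93 bp, so peaks stood on both sides of the gene. Their strongest overlapping peak ranked 9391 in replicate 1 and 583 in replicate 2.

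After the values were seen, the windows of the ftt-2 summits were searched for a shared run of bases. The longest was agggggctgcc, 11 bases on the same strand of both. No other window within 100 bp of the 1826 thresholded summits held it, and it was in 0 of 19985 windows of that width at protein-coding 5′ ends. The search was made on these summits alone, so the absence of the run elsewhere gives it no support. What the run does was not tested.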
